A study of Mus musculus with 5 samples.

Results

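The 10 genes described here encode proteins that end signalling by G-protein-coupled receptors. They comprise 4 G-protein-coupled receptor kinases (*Grk2*, *Grk3*, *Grk5* and *Grk6*), both beta-arrestins (*Arrb1* and *Arrb2*) and 4 regulators of G-protein signalling (*Rgs2*, *Rgs3*, *Rgs4* and *Rgs7*). They were chosen by name, under a rule that uses no measured value, although earlier results of these data were known. They were matched by Ensembl identifier among the 55411 genes of the count tables.

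Their transcripts were measured in olfactory sensory neurons (OSNs) that transcribe the odorant receptor gene *Olfr151*, also named *M71*. The donors were male mice aged 7 weeks and homozygous for the Olfr151tm26Mom allele, in which an IRES-tau-GFP cassette makes a neuron fluoresce when it transcribes that receptor gene. Exposed mice were kept for 5 h with 5% acetophenone, an agonist of Olfr151, in DMSO, and control mice with DMSO alone. Control and exposed animals thus shared the allele, the solvent and the duration. Each library was made from the sorted GFP+ cells of a pool of 4 mice. Control pools 1, 2 and 3 and exposed pools 1 and 3 were analysed, and exposed pool 2 was not analysed here. The sample characteristics give 200 cells per pool and the extraction protocol of the labels gives 400. The comparison asks whether activation of a receptor by its ligand changes the transcripts of the machinery that switches such receptors off.

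When an odorant binds its receptor, the receptor activates the G protein Golf, adenylyl cyclase makes cAMP and cation channels open in the cilia. GRKs phosphorylate receptors in their active state, and beta-arrestins bind the phosphorylated receptor, uncouple it from its G protein and link it to clathrin and its adaptor AP-2 for internalization. RGS proteins act one step later, since they speed the hydrolysis of GTP by G alpha subunits. GRK3 is the kinase classically associated with desensitization in olfactory cilia, and beta-arrestin 2 is the arrestin usually named beside it.

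The libraries held 42780403 to 49527380 counts, of which the spike-in RNAs took 0.249 to 0.631%. Genes of mature OSNs dominated, with *Stoml3* at 24786 to 29450 TPM (counts divided by exon length and scaled to a common sum within a library) and *Omp* at 18224 to 27094 TPM. *Olfr151* itself averaged 11.53 log2 CPM (counts scaled to a common library size). Markers of other cells were uneven. The summed level of 14 myeloid genes was 840 TPM in control pool 1 and 859 TPM in exposed pool 1, against 98.8, 58.2 and 221 TPM in control pools 2 and 3 and exposed pool 3. The sum of 3 erythroid genes was 1215, 442 and 48.2 TPM in the control pools and 46.8 and 21.8 TPM in the exposed pools. In bulk samples, fewer cells of a type and less RNA per cell cannot be told apart.

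*Arrb2*, *Rgs7* and *Rgs3* were the abundant members, and they were present in every library. In the control pools *Arrb2* averaged 53.5 TPM ± 10.2 (SD, n = 3), *Rgs7* 43.9 TPM ± 8.01 and *Rgs3* 16.5 TPM ± 0.479. The median gene tested stood at 25.1 TPM, and 70.6%, 65.5% and 37.4% of the tested genes lay below these 3 members. *Grk6* followed at 8.43 TPM ± 6.68, *Rgs2* at 3.24 TPM ± 1.53, *Grk2* at 3.09 TPM ± 3.07 and *Grk5* at 1.81 TPM ± 0.998. *Arrb1* averaged 0.239 TPM ± 0.409 and *Grk3* 0.0142 TPM ± 0.0177, while *Rgs4* had no read in any control pool. Between neighbours in this order the control values did not overlap for *Rgs7* above *Rgs3*, *Rgs3* above *Grk6* and *Grk5* above *Arrb1*, and they overlapped, or were both at 0 in some pools, for all other neighbours.

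**Figure D1:**
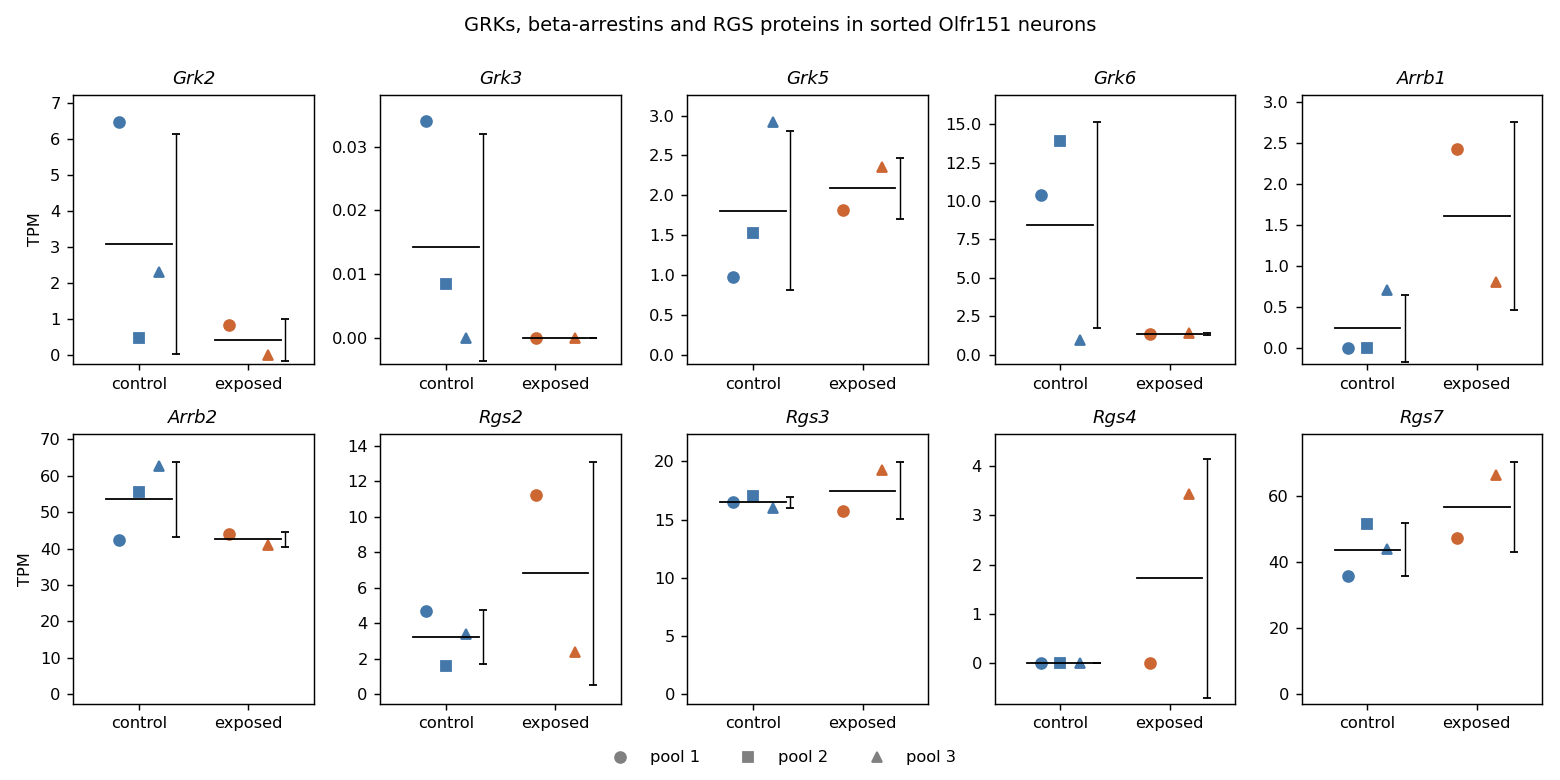
Level of each of the 10 genes in TPM (y axis, linear, with its own range in each panel) in the 3 control pools (blue) and 2 exposed pools (orange). Symbols mark the pool number of the labels, horizontal lines the group mean and vertical bars ± 1 SD. *Arrb2*, *Rgs3* and *Rgs7* sit well above 0 in every library, while *Grk3* never exceeds 0.0341 TPM and *Rgs4* has reads in exposed pool 3 alone.

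None of the 10 genes was called different after 5 h of acetophenone. A gene was called when its adjusted p lay under 0.1 and its log2 fold change went past 0.5 in either direction, and 5.27% of the 10055 genes tested met both. Only *Arrb2*, *Rgs3*, *Rgs7* and *Grk5* had enough reads to be tested, since the filter asked for at least 140 counts in every library of a condition. Of these 4, 1 had an unadjusted p under 0.05 with edgeR's quasi-likelihood test, and DESeq2 also gave 1 such gene and 0 calls. A fit without the filter covered all 10 genes and called 0 of them, with an unadjusted p under 0.05 for 3, against 1.57% of all genes called in that fit.

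In summed TPM the kinases were the lowest of the 3 groups. *Grk3*, on chromosome 5 (GRCm38 chr5:112910482-113015791, minus strand), had 4 reads in control pool 1, 1 read in control pool 2 and 0 reads in the other libraries, 5 in all. A count of 0 allows up to 3 reads, which for the exon length of *Grk3* is 0.0239 to 0.0260 TPM depending on the library. Its annotated exons share 0 bases with exons of other genes, and only 4 of the 8735 windows of 50 bases in its transcripts, or 0.0458%, occur in annotated transcripts of another gene. Reads lost to other parts of the genome were not tested.

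*Grk3* made up 0.191%, 0.0531% and 0% of the summed TPM of the 4 kinases in the control pools and 0% in both exposed pools. The difference of 0.0812 percentage points did not pass an exact two-sided permutation test over the 5 libraries (p = 0.40, with 0.10 the smallest value that 3 against 2 can give). At 5 reads, no difference of *Grk3* between conditions was detectable at this depth.

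*Grk6* and *Grk2* were each plentiful in some control pools and sparse in others. *Grk6*, on chromosome 13 (chr13:55445072-55460927, plus strand), had 590, 795 and 55 reads in control pools 1, 2 and 3, and 80 and 77 reads in exposed pools 1 and 3. Control pools 1 and 2 stood far above the rest, and control pool 3 lay below both exposed pools. The gene did not pass the count filter, and without a filter its log2 fold change was -2.45 (SE 0.997, 95% interval -4.70 to -0.21, adjusted p = 0.487 by edgeR). Without control pool 3 it entered the test and was called lower, at -2.97 (adjusted p = 0.0379), so this single library decided the call.

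*Grk2*, which encodes the broadly expressed kinase also known as beta-adrenergic receptor kinase 1, lies on chromosome 19 (chr19:4286001-4306222, minus strand). It had 391, 29 and 138 reads in the control pools and 53 and 0 reads in the exposed pools. The groups overlapped, and the log2 fold change without a filter was -2.73 (SE 1.90, adjusted p = 0.607 by edgeR). The 2 control pools with the most *Grk6* reads were those with the highest erythroid sums, 1215 and 442 TPM. Control pool 1 had the most *Grk2* reads and the highest erythroid sum. Control pool 2, at 442 TPM, had fewer *Grk2* reads (29) than control pool 3 (138) and exposed pool 1 (53), where the erythroid sums were lower. No erythroid marker was at 0 in any library, and their part in these kinase values was not tested.

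*Grk5*, a kinase of the GRK4 subfamily like *Grk6*, was low but present in all libraries. It lies on chromosome 19 (chr19:60889749-61095968, plus strand) and had 93, 147 and 274 reads in the control pools and 185 and 220 in the exposed pools. Both exposed values fell within the control range. The log2 fold change was 0.38 (SE 0.62, 95% interval -1.09 to 1.84, adjusted p = 0.780), a range that includes a loss or a gain of 1 log2 unit. *Grk5* passed the filter only through the exposed libraries, because control pool 1 lay below 140 counts.

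Summed over the 4 kinases, the level was 17.9, 15.9 and 6.21 TPM in the control pools and 3.96 and 3.74 TPM in the exposed pools. Both exposed sums lay below all control sums. Among all tested genes, in counts scaled for library size and composition, 19.6% had both exposed libraries below every control and 40% had groups apart in either direction. Those shares concern single genes on another scale than this TPM sum, and only 1 of the 4 kinases was tested. The make-up of the sum also differed from pool to pool, with *Grk6* at 15.8 to 87.3% and *Grk5* at 5.46 to 63.0% over the 5 libraries. *Grk1* and *Grk4*, the remaining kinases of the family, had 0 reads in every library and 55 to 150 reads respectively. The sum of the 4 RGS members went the other way, at 56.9, 70.3 and 63.5 TPM in the control pools and 74.3 and 91.5 TPM in the exposed pools. That of the beta-arrestins overlapped between the groups.

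The beta-arrestin transcripts were almost entirely *Arrb2*. This gene lies on chromosome 11 (chr11:70432635-70440828, plus strand) and had 1633, 2146 and 2379 reads in the control pools and 1808 and 1547 reads in the exposed pools. The groups overlapped. Its log2 fold change was -0.16 (SE 0.25, 95% interval -0.76 to 0.45, adjusted p = 0.778), so a loss of up to 0.76 log2 units lies within the error. A 64-base stretch, 2.25% of its exon length, is shared with the microRNA gene *Mir7115*, where reads would be ambiguous.

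*Arrb1*, on chromosome 7 (chr7:99535466-99606771, plus strand), had 0, 1 and 106 reads in the control pools and 391 and 119 reads in the exposed pools. Both exposed pools lay above every control pool, although exposed pool 3 exceeded control pool 3 by little. The gene failed the count filter, and without it the log2 fold change was 2.98 (SE 2.03, adjusted p = 0.607 by edgeR). In that fit 22.4% of all genes had groups that did not overlap. Control pool 1, with a myeloid sum of 840 TPM close to the 859 TPM of exposed pool 1, had no *Arrb1* read. The myeloid markers *Fcer1g* and *Tyrobp* were, like *Arrb1*, more abundant in both exposed pools, with 241, 107 and 74 reads of *Fcer1g* in the control pools against 776 and 851, and 538, 123 and 67 reads of *Tyrobp* against 1026 and 797. *Fcer1g* was called higher (log2 fold change 2.63, adjusted p = 0.081) and *Tyrobp* was not (1.98, adjusted p = 0.297). Both markers passed the count filter only through the exposed libraries, because control pools 2 and 3 lay below 140 counts. They were picked from 14 myeloid genes, of which 6 were tested and 1 was called. The sum of the 14 overlapped between the groups, at 840 TPM in control pool 1 and 221 TPM in exposed pool 3. The part of myeloid RNA in the *Arrb1* values was not tested.

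As a share of the TPM of both beta-arrestins, *Arrb2* took 100%, 99.99% and 98.9% in the control pools and 94.8% and 98.1% in the exposed pools. The exposed shares lay below all control shares, with a mean difference of 3.19 percentage points in favour of the controls. The exact two-sided permutation test gave p = 0.10, the smallest value this design allows, so the test could not have passed 0.05. *Arrb2* stood above 94% of beta-arrestin TPM in each library. The visual arrestins were at or near 0, with no read of *Arr3* and 0 to 56 reads of *Sag*.

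*Rgs7* was the most abundant RGS gene of these neurons. It encodes a member of the R7 subfamily, which works as a complex with the G protein beta subunit Gnb5, and it lies on chromosome 1 (chr1:175059087-175492500, minus strand). Its reads numbered 2904, 4238 and 3539 in the control pools and 4105 and 5301 in the exposed pools. After scaling for library size and composition (TMM) these were 65.9, 86.6 and 75.4 CPM against 96.1 and 129. Both exposed pools were above the controls on this scale, as for 20.3% of all tested genes, whereas on the TPM scale exposed pool 1 (47.3) lay below control pool 2 (51.7).

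The log2 fold change of *Rgs7* was 0.54 (SE 0.21, 95% interval 0.03 to 1.05). Its adjusted p was 0.237 in edgeR's quasi-likelihood test and 0.128 with DESeq2, so the gene was not called. Counts were regular between pools, with a biological coefficient of variation of 0.250 in the fit of all genes, below the 0.307 of genes of like abundance. None of its 50-base windows occurs in another gene.

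*Rgs3*, which encodes an RGS protein that acts on Gi and Gq subunits, had the smallest relative spread of the members over the control pools. It lies on chromosome 4 (chr4:62559847-62704001, plus strand) and had 2402, 2497 and 2308 reads in the control pools and 2455 and 2751 reads in the exposed pools. The coefficient of variation of its control TPM was 2.90%. Its log2 fold change was 0.25 (SE 0.21, 95% interval -0.26 to 0.75, adjusted p = 0.580). The exposed pools lay above the controls in TMM-scaled CPM, as for 20.3% of all tested genes, and overlapped them in TPM. The locus makes long and short transcripts, and 11.4% of its 50-base windows occur in the gene model *Gm5763*, so that reads which map to both were not counted.

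*Rgs2*, known for its preference for Gq and as a gene induced rapidly in many cells, varied widely. It lies on chromosome 1 (chr1:143999338-144004161, minus strand) and had 229, 80 and 165 reads in the control pools and 589 and 114 reads in the exposed pools. Exposed pool 1 was the highest library and exposed pool 3 lay within the control range. The log2 fold change without a filter was 1.26 (SE 0.84, adjusted p = 0.607 by edgeR). The libraries with the most *Rgs2* reads, exposed pool 1 and control pool 1, were also those with the highest myeloid sums, 859 and 840 TPM. The order did not hold below them, since exposed pool 3 (221 TPM) had fewer *Rgs2* reads than control pool 3 (58.2 TPM). In exposed pool 1 none of the 14 myeloid genes was at 0, and in control pool 1 only 1 was. The part of myeloid RNA in the *Rgs2* values was not tested.

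*Rgs4* was seen in 1 library. It encodes a small RGS protein of the brain, lies on chromosome 1 (chr1:169741477-169747642, minus strand) and had 141 reads in exposed pool 3 and 0 in the other 4 libraries. The exposed pools thus differed from each other as much as from the controls, and no fold change is given. Exposed pool 3 was also the only library with reads of *Neurod1*, a transcription factor of neuronal precursors, at 232. The summed level of 6 progenitor genes was 8.66 TPM there and at most 1.06 TPM elsewhere, and its part in the *Rgs4* value was not tested.

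Over the 21 genes named *Rgs* on the list, *Rgs7* took 29.2 to 45.2% of the summed TPM and *Rgs3* 9.75 to 15.6%. *Rgs11* took 9.31 to 16.7% and *Rgs6* 8.06 to 11.7%, both of the R7 subfamily like *Rgs7*. The order below *Rgs7* changed between libraries. *Rgs20*, at 10.1% in exposed pool 1, exceeded *Rgs3* and *Rgs6* there, and *Rgs1*, at 17.6 TPM in control pool 1, exceeded *Rgs3* there. The R7 subfamily together made up 50.3 to 73.6% of the sum. *Rgs9*, the R7 member of rod and striatal signalling, contributed little, with 0 to 96 reads.

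**Figure D2:**
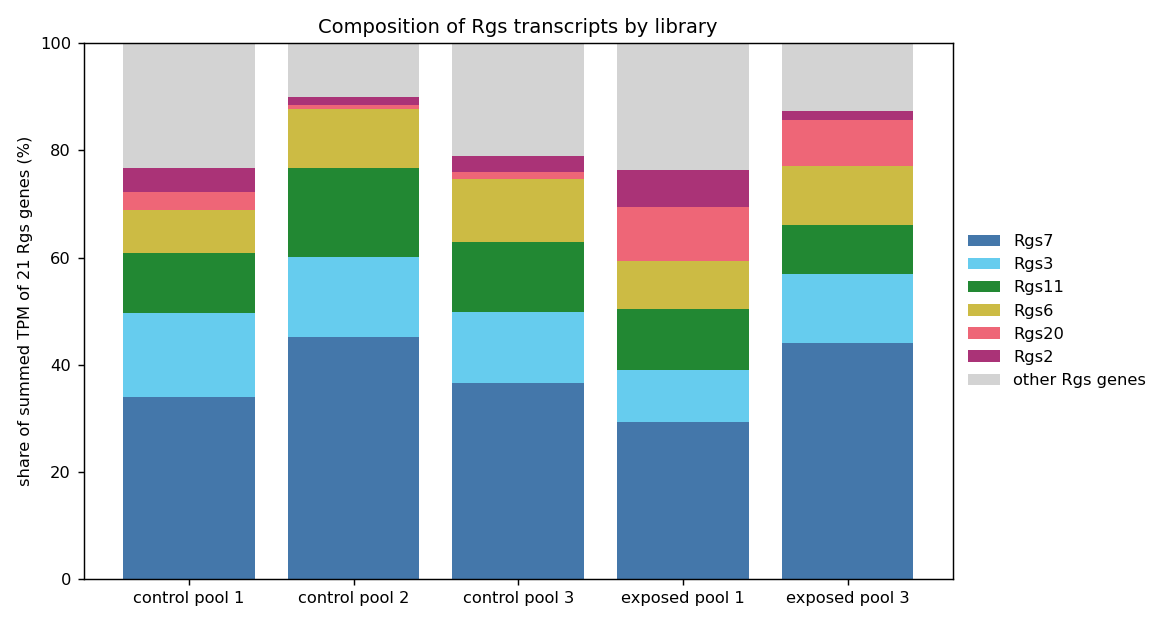
Share of the summed TPM of 21 Rgs genes (y axis, percent) in each of the 5 libraries (x axis). Coloured segments are the 6 genes named in the key, and grey is the sum of the other 15. *Rgs7* is the largest single named segment in every library, and *Rgs20* widens from 0.819 to 3.50% in the controls to 8.66 to 10.1% in the exposed pools.

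No partner of *Rgs7* was called. Of the list of 5 R7 partners, 3 were tested, 0 were called and 0 had an unadjusted p under 0.05 (edgeR), with 0 called by DESeq2 too. *Gnb5*, the obligate beta subunit of the complex, had 3303 to 4513 reads and a log2 fold change of -0.14 (SE 0.19). *Rgs7bp*, a membrane anchor, had a log2 fold change of 0.56 (SE 0.29, adjusted p = 0.340), and *Gpr158*, an orphan receptor that binds RGS7, one of 0.90 (SE 0.43, adjusted p = 0.322). For *Rgs7bp* and *Gpr158*, as for *Rgs7*, both exposed pools lay above the controls in TMM-scaled CPM. The same held for 20.3% of all tested genes, so no joint change of these genes is claimed. *Rgs9bp* had no read in any library.

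Among the 19 other RGS-domain genes, 5 were tested and 1 was called. *Rgs20* encodes a Gz-selective RGS protein and is no member of the set of 10. It had 211, 54 and 95 reads in the control pools and 999 and 733 reads in the exposed pools. The exposed pools were well above the controls, and the log2 fold change was 2.94 (SE 0.66, adjusted p = 0.076). *Rgs20* passed the count filter only through the exposed libraries, and in the fit without a filter its adjusted p was 0.082. The call rests on few libraries: it held in 6 of 13 alternative settings, and it was lost without control pool 2 (adjusted p = 0.153), control pool 3 (0.114), exposed pool 1 (0.370) or exposed pool 3 (0.189). Myeloid sums were alike in control pool 1 and exposed pool 1 (840 and 859 TPM), where *Rgs20* stood at 3.69 and 16.3 TPM. The myeloid marker *Fcer1g*, at 241, 107 and 74 against 776 and 851 reads, was higher in the same pools as *Rgs20*, and so was *Tyrobp*, at 538, 123 and 67 against 1026 and 797 reads. Both markers were picked from the 14 myeloid genes, whose sum overlapped between the groups (840 TPM in control pool 1, 221 TPM in exposed pool 3). The part of myeloid RNA in the *Rgs20* values was not tested.

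Of the 13 G alpha genes, on whose products RGS proteins act, 9 were tested, 1 was called higher and 1 lower. *Gnaz*, which encodes the alpha subunit of Gz, fell from 1458, 1641 and 1509 reads in the control pools to 613 and 621 in the exposed pools. Replicates of each condition were close to each other, at 32.9 CPM ± 0.714 (SD, n = 3) and 14.7 CPM ± 0.503 (SD, n = 2). The log2 fold change was -1.18 (SE 0.27, adjusted p = 0.081), but the call held in only 3 of 13 alternative settings and was lost when any single library was left out (adjusted p 0.131 to 0.361). *Gna13* rose by 1.40 log2 units (SE 0.27, adjusted p = 0.049). *Gnal*, which encodes the alpha subunit of Golf and takes most of the G alpha reads, had a log2 fold change of -0.17 (SE 0.15, adjusted p = 0.595), and *Gnao1* one of 0.24 (SE 0.18, adjusted p = 0.506).

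**Figure D3:**
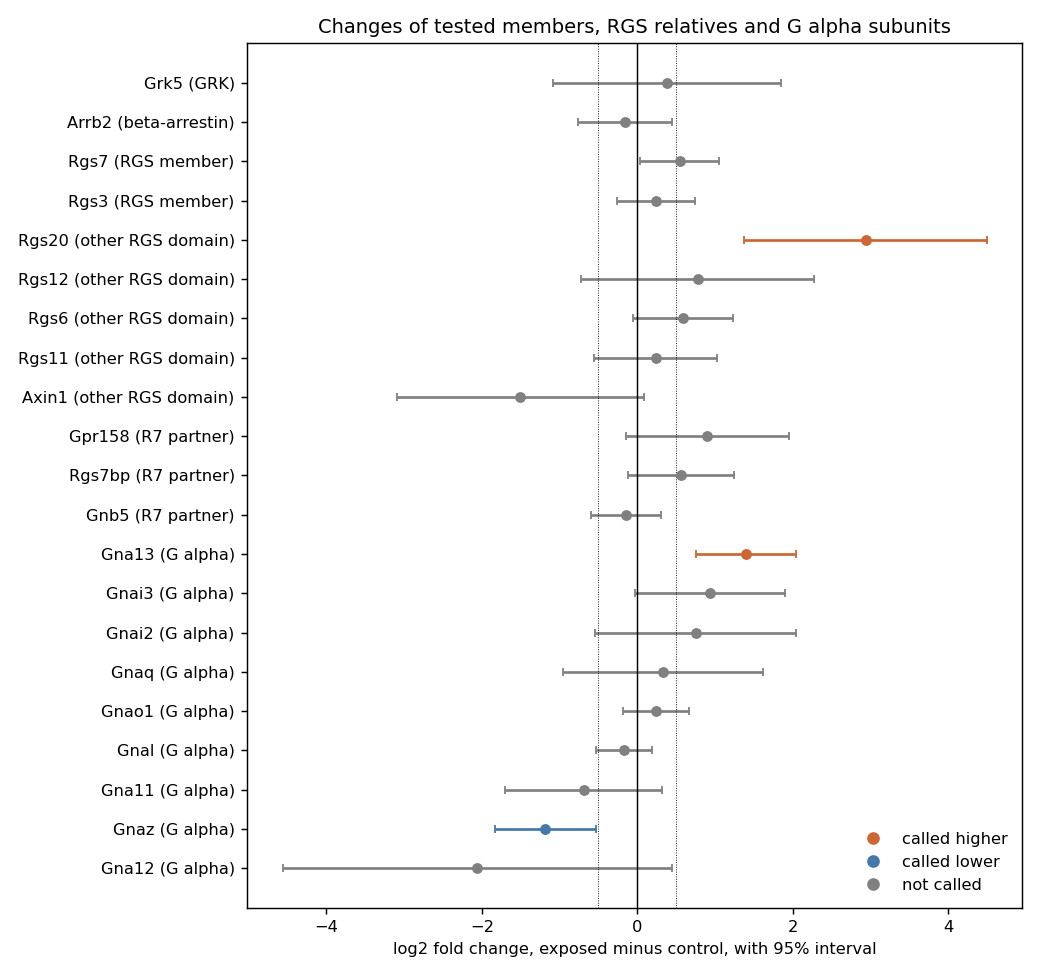
Log2 fold change of exposed minus control (x axis) with its 95% interval for the tested members, other RGS-domain genes, R7 partners and G alpha genes (y axis). Dotted lines mark 0.5 in either direction. The 4 members (*Grk5*, *Arrb2*, *Rgs7*, *Rgs3*) are grey, meaning not called, while *Rgs20* and *Gna13* are called higher and *Gnaz* lower.

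The other neighbours of the members were described by lists of the proteins that control GRKs, carry receptors away with arrestins or share the cAMP pathway. Of 11 regulators of GRKs, 7 were tested and 1 was called. *Hpcal1*, a calcium sensor related to recoverin, rose by 1.64 log2 units (SE 0.26, adjusted p = 0.027), from 61.1 CPM ± 16.5 to 194 CPM ± 36.2. The median of the 7 was -0.51, beside -0.03 for all tested genes.

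Of 17 genes of clathrin-mediated endocytosis, 16 were tested, 2 rose and 0 fell. *Cltc*, the clathrin heavy chain, rose by 0.84 log2 units (SE 0.18, adjusted p = 0.071), and *Ap2a2*, an alpha subunit of AP-2, by 0.75 (SE 0.13, adjusted p = 0.036). The other 14, among them *Ap2b1*, which encodes the AP-2 subunit that binds beta-arrestin (0.35, SE 0.36), were not called, and the median of the 16 was 0.16. Of 6 arrestin-domain genes 5 were tested, and 0 were called by edgeR although 2 had an unadjusted p under 0.05. Their median was -0.57.

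The cAMP-dependent kinase PKA, which phosphorylates receptors without regard to their activation, had 5 of 6 subunit genes tested. *Prkar1a*, a regulatory subunit, rose by 1.19 log2 units (SE 0.11, adjusted p = 0.0043), from 696 CPM ± 31.9 to 1611 CPM ± 16.7. *Prkaca*, a catalytic subunit, fell by 1.65 log2 units (SE 0.28, adjusted p = 0.033), from 199 CPM ± 57.6 to 64.1 CPM ± 10.4. The remaining 3 were not called, and the median of the 5 was -1.35. The summed TPM of the 6 genes went the other way, at 969, 1208 and 945 in the control pools and 1297 and 1445 in the exposed pools.

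**Figure D4:**
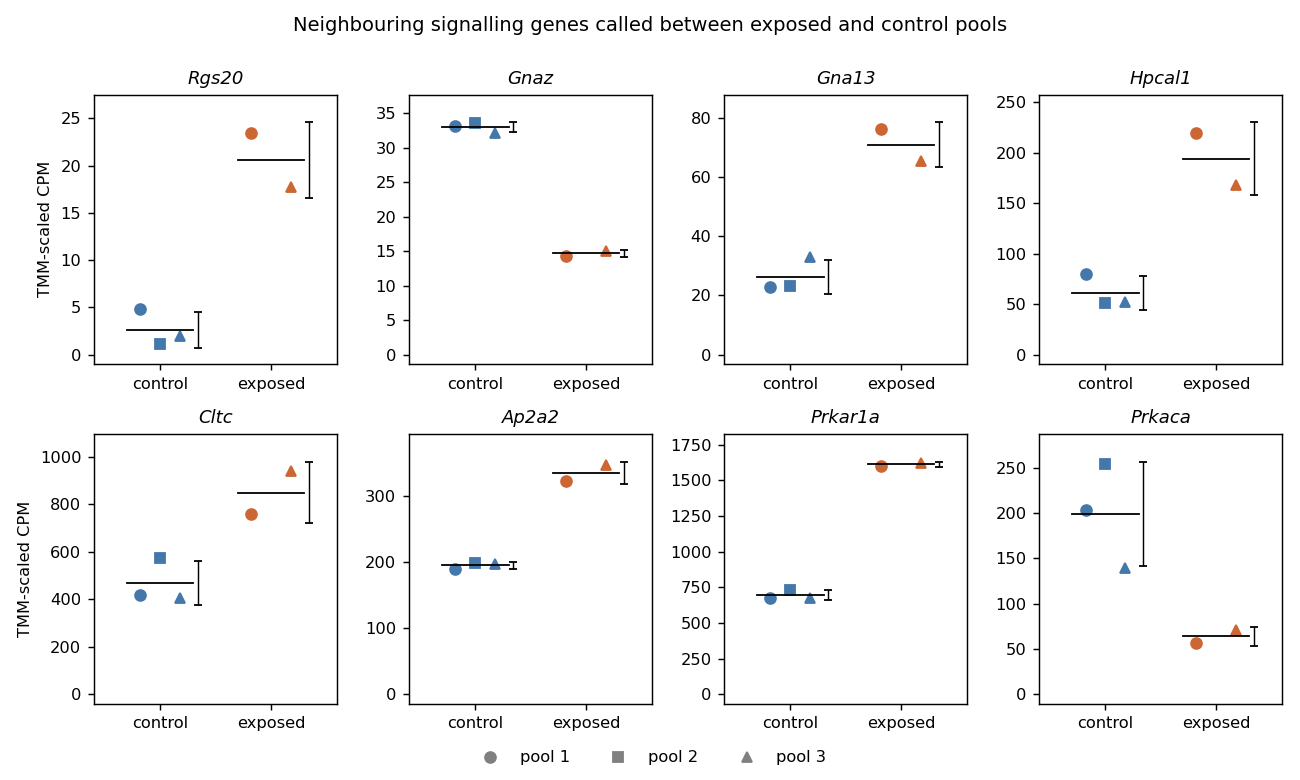
TMM-scaled CPM (y axis, linear, with its own range in each panel) of the 8 neighbouring genes called between conditions, in 3 control pools (blue) and 2 exposed pools (orange). Symbols mark the pool number, horizontal lines the mean and vertical bars ± 1 SD. *Gnaz* and *Prkaca* are lower in both exposed pools and the other 6 genes are higher in both, without overlap.

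Together the lists beside the members held 50 tested genes, of which 6 were called higher and 2 lower, against 3.42% and 1.85% of all genes tested. The lists were chosen with earlier results of these data known, so no enrichment is claimed from these shares. Each of the 8 called genes kept its direction in all 13 alternative settings, although the stricter adjusted p reuses the main fit and cannot change a direction. Among the calls outside *Rgs20* and *Gnaz*, that of *Prkar1a* held when any single library was left out. Without exposed pool 1 the calls of *Gna13* (adjusted p = 0.324), *Hpcal1* (0.225), *Cltc* (0.229), *Ap2a2* (0.213) and *Prkaca* (0.262) were lost. Without exposed pool 3 those of *Gna13* (0.150), *Cltc* (0.272), *Ap2a2* (0.171) and *Prkaca* (0.132) were lost. Leaving out control pool 2 ended the calls of *Gna13* (0.153) and *Ap2a2* (0.111), and leaving out control pool 1 (0.123) or 3 (0.104) ended that of *Cltc*. With spike-in scaling 1 of the 8 calls was left, *Rgs20*, and with the pool number as a block 0.

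Exposed neurons differed from control neurons in genes that follow neuronal activity. *Nr4a1* rose by 4.37 log2 units (SE 0.23, adjusted p = 0.00096) and *S100a5* by 2.17 (SE 0.24, adjusted p = 0.0099). *Mustn1* had 0, 26 and 0 reads in the control pools and 3974 and 2891 in the exposed pools. It passed the count filter only through the exposed pools. It was called higher in that fit (adjusted p = 0.033) and was not called without the filter (adjusted p = 0.283). *Junb* rose by 1.65 and *Egr1* by 1.49 log2 units, whereas *Fos* (0.90, adjusted p = 0.109) and *Fosb* (1.57, adjusted p = 0.129) missed the threshold and *Npas4* had too few reads. *S100a5* alone took 2.39 to 3.81% of TPM in the controls and 12.2 to 13.9% in the exposed pools, which lowers the TPM of every other gene in the exposed pools. Of 10 mature OSN genes 4 were called lower and 0 higher, and of 5 immature OSN genes *Gap43* was called higher.

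Promoter sequences spanning the start site were held for 6 of the 10 genes in the RefSeq table of GRCm38.p6, 9 promoters of 300 bases in all. Motifs for CREB (TGACGTCA), AP-1 (TGANTCA), Egr factors (GCGNGGGCG), and that named EBF, were searched on both strands. Only the promoter of *Rgs2* held one of them, the Egr motif, which occurs in 5.55% of the 32851 promoters of the table. The match is a description of the sequence and says nothing of binding.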

How the data were processed

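RNA was sequenced from sorted *Olfr151* neurons in 5 libraries, each a pool of 4 mice, and libraries were grouped by the treatment and pool number in the labels. The authors mapped reads with STAR 2.7.0a on GRCm38 and deposited raw counts per gene made with featureCounts 1.6.3, without regard to strand and without multi-mapping reads, so the deposited counts carry no filter or normalization. Reads of overlapping genes on opposite strands are therefore not separable. Of 55411 genes, 55144 were named through GENCODE M21.

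Counts were tested in R 4.3.3 with edgeR 4.0.16 (TMM, glmQLFit with robust estimation, glmQLFTest), with condition as the only factor and Benjamini-Hochberg adjustment over all 10055 genes tested. A gene entered when all libraries of a condition had 140 counts or more, where 140 is the higher of 2 local minima in the distribution of log2-transformed counts. Calls needed an adjusted p under 0.1 and a log2 fold change past 0.5 in either direction. Alternatives used DESeq2 1.42.0 with apeglm 1.24.0, other scalings, thresholds and filters, the pool number as a block, and each library left out. TPM used the deposited exon lengths, and CPM in the text are TMM-scaled over all genes without the count filter. Pools are separate animals, the intervals of fold changes are those of the edgeR fit and carry the spread between pools, and floors of 3 counts cover counting error only.

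In simulated data with 200 of 10055 genes changed, the test recovered 24% of genes changed 2-fold, 68% of those changed 4-fold, 94% at 8-fold and 100% at 16-fold, with 33 false calls. Those false calls stand beside 12, 34, 47 and 50 recovered genes at the respective folds. The changed genes were drawn from all tested genes, so recovery at the low level of *Grk5* was not measured separately.

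The members and lists were chosen with earlier results of these data known. By rule, the text names all 10 members, called genes of the neighbouring lists, all activity genes and the top marker per cell type, and others that explain a family were added after their values were seen. Because no member was called, no promoter was printed, and the rule's search for genes like *Grk3* was left out, since *Grk3* has 5 reads. The labels describe an experiment over consecutive days without tying pools to days, and pool numbers were not used to pair samples in the main fit.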

Additional observations from a re-analysis of the deposited data

How the results depend on the processing

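The 4 members tested kept their direction and stayed uncalled in all 13 alternative settings, with log2 fold changes of -0.43 to -0.01 for *Arrb2*, 0.08 to 0.93 for *Grk5*, 0.08 to 0.33 for *Rgs3* and 0.30 to 0.72 for *Rgs7*. The stricter adjusted p reuses the main fit, so it could neither reverse a direction nor add a call. Over all members, leaving out single libraries gave 0 to 1 lower and 0 higher calls, the 1 being *Grk6* without control pool 3. Over all genes (344 higher and 186 lower), spike-in scaling gave 94 and 49, DESeq2 671 and 715, an adjusted p under 0.05 190 and 90, and filterByExpr 162 and 74. Leaving out single libraries gave 93 (without exposed pool 1) to 348 higher, and 19 (without exposed pool 1) to 429 (without control pool 3) lower. For the neighbouring lists (6 higher and 2 lower), spike-in scaling gave 1 and 0, filterByExpr 3 and 0, DESeq2 4 lower, an adjusted p under 0.05 1 lower, no filter 1 lower, and leaving out single libraries 1 to 5 higher and 0 to 2 lower. The cause was not tested. Spike-in scaling moved the median log2 fold change of all tested genes from -0.03 to -0.23, and the absence of a filter moved it to -0.15.

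Deviations from the group means in pools with the same number had correlations of 0.028 (number 1) and -0.072 (number 3). The deviations of exposed pools 1 and 3 are mirror images, so these correlations cannot decide whether same-numbered pools share more than a number. Spike-in shares were alike in pools 1 (0.631% control, 0.542% exposed) and in pools 3 (0.332%, 0.306%). Myeloid sums were alike in pools 1 (840 and 859 TPM) but not in pools 3 (58.2 and 221 TPM). Erythroid sums differed in pools 1 (1215 and 46.8 TPM). A shared day or preparation was not tested. With the replicate block, which leaves 1 residual degree of freedom, 11 genes were called higher and 0 lower over all genes, 0 and 0 in the neighbouring lists and 0 among the members.

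The fall of the *Arrb2* share was 11.0 percentage points (-11.0) with counts in place of TPM, which do not correct for the longer *Arrb1* exons, and ranged from -4.84 to -1.54 when single libraries were left out. A *Grk3* share over *Grk2* and *Grk3* alone could not be computed, since exposed pool 3 has no read of either. A lower threshold of 58 counts, chosen after seeing the data, gave 338 higher and 182 lower calls and 0 among the members. The 5 reads of *Grk3* limit that gene. For *Grk2*, *Arrb1* and *Rgs2* the pools varied widely, with biological coefficients of variation of 1.40, 1.57 and 0.77.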

Other observations

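Among the marker lists of other cell types, the gene with the highest level in any library ranged, over the 5 libraries, from 79.6 to 259 TPM for sustentacular *Cbr2*, 16.5 to 255 for microvillar *Coch*, 2.75 to 59.2 for neutrophil *Retnlg*, 8.81 to 486 for myeloid *Cd74* and 15.2 to 932 for erythroid *Hbb-bs*. It stayed at or below 4.14 TPM for basal *Krt5*, glial *Fabp7*, lymphoid *Trbc2* and endothelial *Pecam1*.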
